A study of Homo sapiens with 5 samples.

Results

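Among the 1000 best-ranked SF-1 peaks obtained with the Millipore antibody in basal conditions, 585 (58.5%, 95% Wilson interval 55.4 to 61.5) overlapped no peak of the other 3 peak lists of the study by even 1 bp. The remaining 415 overlapped at least 1 of them. These 585 peaks, called here the unique strong sites or members, were chosen on the rank and the overlap themselves, so both values describe the choice and carry no test. Of all 4393 peaks of the list, 79.1% overlapped no other list. That percentage comes from the measure used for the choice and nothing is read from it. The 4 lists together held 30372 peaks.

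SF-1, the product of NR5A1, was immunoprecipitated from chromatin of H295R/TR SF-1 cells, and the DNA was sequenced (ChIP-seq). H295R is an established human adrenocortical tumor line, and this subclone carries an SF-1 transgene that is switched on by doxycycline. Cells were left without doxycycline (basal SF-1) or treated with it for 3 days (overexpressed SF-1), and each dosage was precipitated with an antibody from Millipore or one from Perseus. For each combination of dosage and antibody 3 libraries were pooled, and 2 libraries of input DNA had no list of their own. Each list is therefore 1 pooled call: 4393 basal Millipore, 11910 overexpressed Millipore, 6616 basal Perseus and 7453 overexpressed Perseus peaks. All cells were 1 subclone of 1 tumor line, and peak lists hold no expression values with which its identity could be checked.

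SF-1 is an orphan nuclear receptor that binds DNA as a monomer, at a hexamer half-site preceded by a short extension that raises affinity. In the adrenal cortex and the gonads it is required for organ formation and for transcription of the genes of steroid hormone synthesis. Many bound sites of nuclear receptors lie far from promoters, in introns and between genes. NRSF/REST is a repressor of neuronal genes whose recognition sequence the study followed within SF-1 sites.

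The SF-1 consensus searched was NCAAGGNCN on both strands, where the first and second N stand for C or T and the last for A or G. Below it is shown, in capitals and 5′ to 3′ along the strand that carries it, with 10 bases to each side, in the 5 best-ranked members that hold it. They are peaks of rank 65 (chr1:19377504-19377532, minus strand), 94 (chr7:37287623-37287651, minus), 95 (chr7:135550278-135550306, plus), 108 (chr15:74724866-74724894, minus) and 112 (chr15:41077616-41077644, minus), in hg19 coordinates. The 3 best-ranked shared peaks that hold it follow for comparison, of rank 6 (chr19:727356-727384, minus), 13 (chr9:77296946-77296974, minus) and 15 (chr9:135820018-135820046, plus).
member 65: cttcaaaatgTCAAGGCCGtgaaggaagt
member 94: ggagagctctCCAAGGTCAgggatgctgg
member 95: gctctgtgctCCAAGGTCGgcaaatagtc
member 108: tgtgacttgcCCAAGGTCActgagcagtg
member 112: agtaatttgcCCAAGGTCAtgctatcagt
shared 6: tgggtcagagTCAAGGTCAgggtcaggat
shared 13: agagaaagagTCAAGGCCAtgcttttcag
shared 15: cgtgaaagggCCAAGGCCGacggcggcct
Each of the 8 carries a form of the 9-letter consensus, and the flanks are printed for context and were not compared.

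Whole peaks are given next for the sites to which the results return, read along the plus strand of hg19. Capitals mark the consensus where the peak holds it (as its reverse complement where it is on the minus strand), and otherwise the first of the 9-letter stretches with the fewest mismatches to it. Member 38 (chr13:114968351-114968599) was the best-ranked unique site and had 2 mismatches at its closest stretch. Member 65 (chr1:19377501-19377749) was the best-ranked one with the consensus, on the minus strand. Members 101 (chr15:74745701-74745999, 2 mismatches) and 108 (chr15:74724851-74725049, consensus on the minus strand) lay upstream of CYP11A1. Member 795 (chr9:127270551-127270749, 2 mismatches) lay next to the start of NR5A1, the gene of SF-1 itself.
member 38: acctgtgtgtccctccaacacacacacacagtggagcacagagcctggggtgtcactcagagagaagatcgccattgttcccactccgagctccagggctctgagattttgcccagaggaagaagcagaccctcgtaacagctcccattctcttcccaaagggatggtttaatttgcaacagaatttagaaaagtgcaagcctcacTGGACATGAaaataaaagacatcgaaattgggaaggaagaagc
member 65: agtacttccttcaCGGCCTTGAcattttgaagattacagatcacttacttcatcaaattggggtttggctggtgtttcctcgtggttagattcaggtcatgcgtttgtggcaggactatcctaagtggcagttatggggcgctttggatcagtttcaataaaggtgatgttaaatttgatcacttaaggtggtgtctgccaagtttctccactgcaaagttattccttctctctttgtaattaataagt
member 101: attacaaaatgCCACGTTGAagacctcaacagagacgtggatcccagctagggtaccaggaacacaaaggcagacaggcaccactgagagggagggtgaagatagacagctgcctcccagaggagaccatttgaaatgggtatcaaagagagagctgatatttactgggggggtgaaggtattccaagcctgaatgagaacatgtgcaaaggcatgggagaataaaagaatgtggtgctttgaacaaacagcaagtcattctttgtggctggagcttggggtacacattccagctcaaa
member 108: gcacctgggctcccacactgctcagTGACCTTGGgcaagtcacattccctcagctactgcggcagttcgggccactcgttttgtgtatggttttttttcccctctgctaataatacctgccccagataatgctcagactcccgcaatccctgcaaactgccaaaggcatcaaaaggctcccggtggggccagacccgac
member 795: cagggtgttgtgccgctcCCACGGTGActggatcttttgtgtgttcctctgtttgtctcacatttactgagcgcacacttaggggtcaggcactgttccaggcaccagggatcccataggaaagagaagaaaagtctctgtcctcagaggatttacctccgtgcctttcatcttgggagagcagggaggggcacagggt

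The unique strong sites began at rank 38, so the 37 best-ranked peaks of the list were all shared, and 12 of the first 100 ranks were members. Their median rank was 598, against 323 for the shared strong peaks. The quantity behind the ranks is not stated in the sources used here. In blocks of 250 ranks, members made up 29.6%, 62.4%, 68.0% and 74.0% of the peaks, in the order of the blocks. Members were also narrower, with a median width of 199 bp and a range of 99 to 399 bp, against a median of 249 bp and a maximum of 799 bp in shared peaks. At the rank threshold, the last members had ranks 996, 997 and 998 and widths of 199, 199 and 149 bp, and the first unique peaks beyond it had ranks 1002, 1003 and 1004 and widths of 149, 199 and 149 bp.

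**Figure D1:**
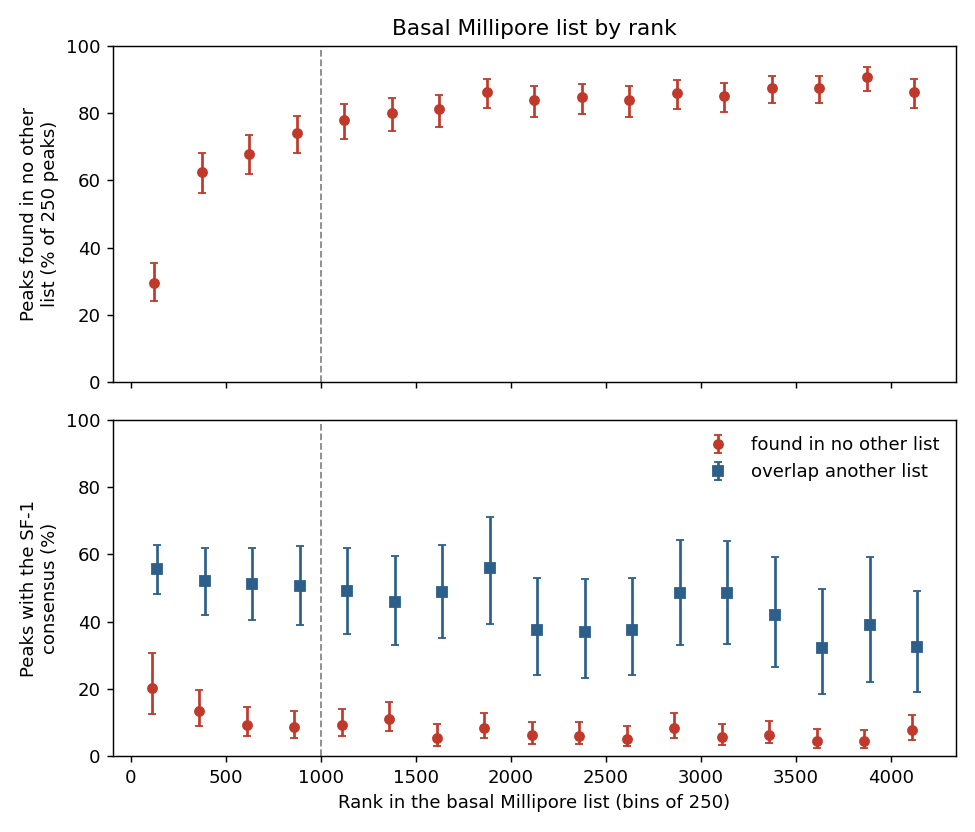
The upper panel plots the percentage of peaks that overlap no other list, and the lower panel the percentage with the SF-1 consensus among unique (circles) and shared (squares) peaks, both against rank in blocks of 250. Bars are 95% Wilson intervals over peaks and the dashed line is rank 1000: the unique share starts at 29.6% and is 74.0% in the block ending there, while unique peaks stay below shared ones in the lower panel in every block.

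The SF-1 consensus was far less frequent in the unique strong sites than in the shared ones, but more frequent than in flanking DNA. It was present in 68 of 585 members (11.6%, 95% interval 9.27 to 14.5) and in 221 of 415 shared strong peaks (53.3%, 48.4 to 58.0). The difference was −41.6 percentage points (Newcombe interval −46.9 to −36.0). Of all peaks of the list, 16.0% held the consensus, so the members were below that background. In 1169 windows of equal width placed 5 kb to either side of the members, 1.28% held it, which is 9.06-fold less, and the difference of 10.3 points had an interval of 7.85 to 13.2. The difference was thus beyond counting error, although 517 members had no exact match.

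Rank and width differed between the groups, and both were held constant in turn. Within strata of 250 ranks the difference was −40.3 points, in the 200 bp around each peak centre −39.3, and within strata of 5 points of GC content −41.2. Each of these 3 values was close to the unadjusted one. Among members the consensus was found in 20.3% of the peaks in the first 250 ranks and in 13.5%, 9.41% and 8.65% in the next 3 blocks. Shared peaks of the same blocks held it in 55.7%, 52.1%, 51.3% and 50.8%. Unique peaks past rank 1000 held it in 6.82%, which was 4.80 points less than the members (2.26 to 7.78).

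The size of the difference depended on which list the shared peaks overlapped. A peak of a Perseus list was overlapped by 326 shared peaks, and 62.0% of these held the consensus, 50.3 points more than the members. For 89 shared peaks the overexpressed Millipore list was the only partner, and 21.3% of these held it (14.1 to 31.0). Against the latter, the members differed by −9.72 points, with an interval of −19.6 to −1.95. All 3 other lists were overlapped by 95 shared peaks.

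In the members that held the consensus, its distance in bp from the peak centre was close to that in shared peaks, which were wider. They contained 75 matches, and the forms were TCAAGGTCA in 26, CCAAGGTCA in 22, TCAAGGCCA in 16, CCAAGGCCA in 7, CCAAGGTCG in 3 and TCAAGGCCG in 1. The median distance of a match from the peak centre was 41 bp in members and 45 bp over the 266 matches of shared peaks. Median widths were 199 bp in all members and 249 bp in all shared strong peaks, and the distance was not scaled to width. At least 2 matches were held by 7 members (1.20%), by 39 shared peaks (9.40%) and by 1.91% of all peaks of the list. Allowing 1 mismatch, 34.0% of members and 80.7% of shared peaks had a match. Over all peaks of the list this share was 34.6%, so the members were at the level of the list. This looser match was not counted in the windows. The fewest mismatches were 1 in 131 members, 2 in 320 and 3 in 66. The 68 members with the consensus had a median rank of 467 and the 517 without one of 605, and rank was part of the choice, so this is a description. Position and base composition were compared with intervals: the share over 100 kb from a gene start was 11.2 points lower with it, but the interval ran from −22.0 to 1.36, and mean GC content was 0.94 points higher (−0.57 to 2.44).

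A count of all words of 8 letters, which used no known motif, was led by the core of the SF-1 consensus. Of 24771 words present in members, ordered by their excess over the windows relative to its counting error, CAAGGTCA came first, in 9.06% of members and 0.941% of windows. In the members without the consensus the leading word was AGTTGTAT, present in 10 of 517 members and in no window. Such a word was picked as the extreme of the whole scan, so its count is a description.

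The NRSF/REST consensus was found in 0 of 585 members with up to 4 mismatches at its 19 fixed positions, which allows a share of up to 0.513%. It was found in 38 of 415 shared strong peaks (9.16%), a difference of −9.16 points (−12.3 to −6.66). Within strata of 250 ranks the difference was −5.24 points (−7.39 to −3.08), an interval with spread from the shared peaks only, since no member held it. Over all peaks of the list the share was 1.12%. Of those 38 peaks, 33 were among the 89 shared with the overexpressed Millipore list only, and 5 among the 326 shared with a Perseus list. The 3 best-ranked shared peaks, of ranks 1, 2 and 3, had 4, 2 and 1 mismatches to it and overlapped the overexpressed Millipore list only. The second of them lay in an intron of NPAS4, a neuronal activity-dependent transcription factor gene.

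Of the other sequences searched, the nuclear receptor half-site was above its flanking level in members, but it overlaps the SF-1 consensus. The half-site AGGTCA, which is part of the forms CCAAGGTCA and TCAAGGTCA, was in 21.0% of members, 10.8% of their windows and 50.1% of shared peaks. The SF-1 core CAAGGTCA, which contains it, was in 9.06% of members and 0.941% of windows. Half-sites outside that core were not counted apart. The AP-1 sequence TGANTCA, with C or G at N, was in 3.25% of members and 3.08% of windows. The GATA sequence AGATAA was in 11.1% of members and 11.6% of shared peaks, and CCAAT in 28.9% and 26.5%. GGGCGG, the GC box of many promoters, was in 1.54% of members and 12.3% of shared peaks, and CAGCTG, an E-box, in 9.40% and 18.3%. The surroundings differed in the same direction. The GC box was in 2.99% of windows beside members and 7.84% beside shared peaks, and the E-box in 6.93% and 11.9%. The CTCF-type sequence and the cAMP-response element TGACGTCA were each in 0 members, and in 3 and 4 shared peaks. A match describes letters in these regions and no match says only that the letters are not there.

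**Figure D2:**
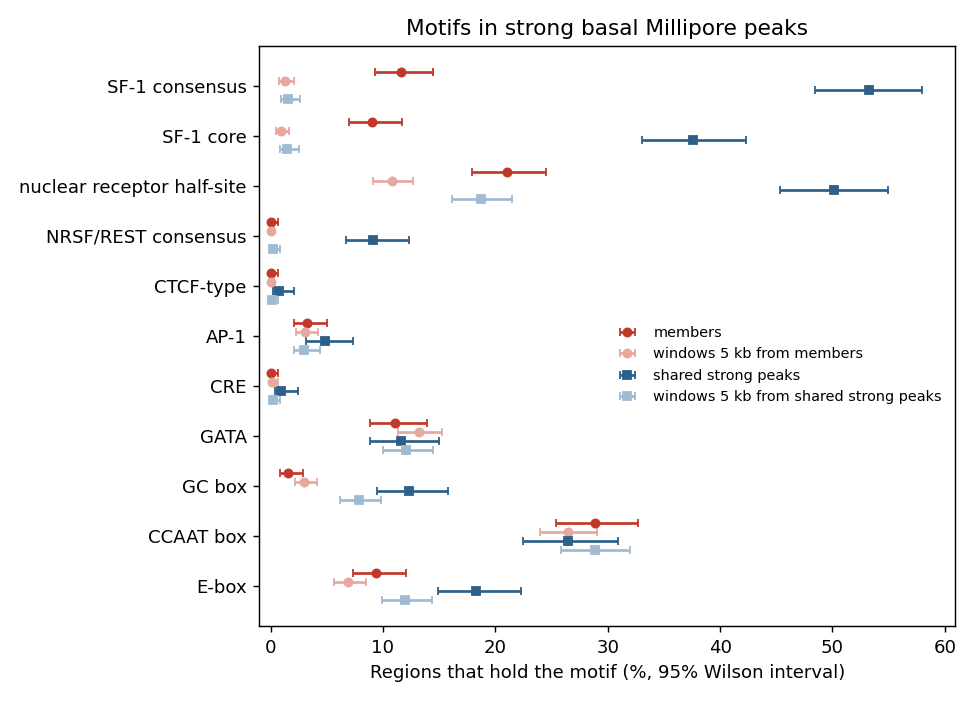
Percentage of regions that hold each motif on either strand, for members, shared strong peaks and windows of the same widths 5 kb away, with 95% Wilson intervals over regions. The SF-1 consensus stands at 11.6% in members and 53.3% in shared peaks with both window sets under 2%, and the NRSF/REST consensus at 0 in members and 9.16% in shared peaks.

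The unique strong sites were poorer in G and C than the shared ones, at about the level of the other unique peaks of the list. Mean GC content was 44.7% ± 7.68 (SD over 585 peaks) in members and 52.0% ± 9.10 (SD over 415) in shared peaks, and the difference was −7.28 points (−8.36 to −6.21). Over all peaks of the list the mean was 46.5%, and in unique peaks past rank 1000 it was 44.96%. Windows 5 kb away had 41.3% beside members and 45.7% beside shared peaks, so the surroundings differed in the same direction. Along GC content, members made up 88.5% of the strong peaks with 30 to 35% GC, 60.6% of those with 45 to 50% and 12.1% of those with 65 to 70%. Low-complexity sequence covered over 50% of 1 member and of 4 shared peaks, a difference of −0.793 points that was within counting error (−2.29 to 0.193). With another measure the difference was beyond it: in the 200 bp around the centre it was −1.34 points (−3.12 to −0.098), and any low-complexity base was present in 10.4% of members, 20.7% of shared peaks and 9.15% of all peaks of the list, with a difference between members and shared peaks of −10.3 (−15.0 to −5.75). Interspersed repeats were not annotated in the reference used and were not counted.

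**Figure D3:**
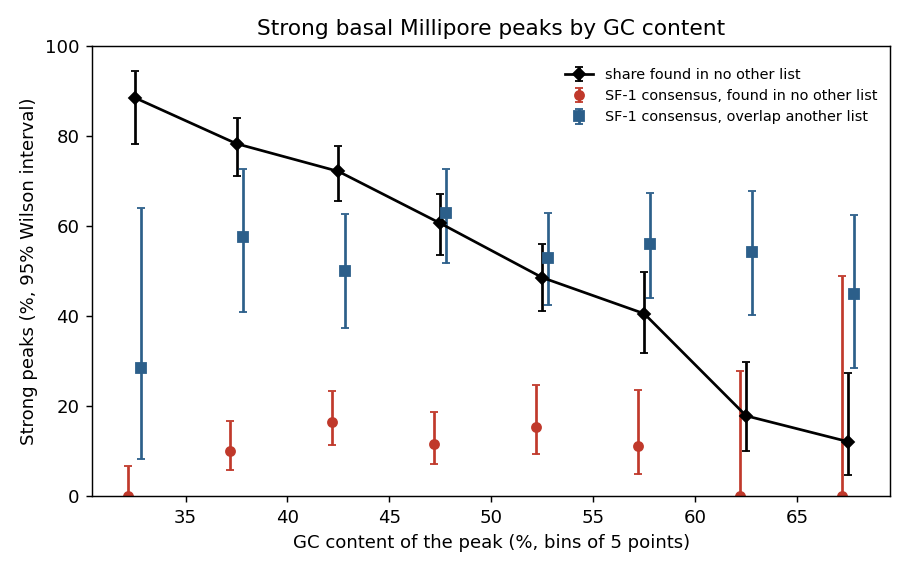
Strong peaks in bins of 5 points of GC content from 30 to 70%: diamonds give the percentage that overlap no other list, circles and squares the percentage with the SF-1 consensus among unique and shared peaks, with 95% Wilson intervals. The share of unique sites declines from 88.5% to 12.1% along the axis, and circles lie below squares in each bin, although at 60% GC and above there are only 10 and 4 members per bin.

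Members lay near a gene's start less often than shared strong peaks and about as often as the other unique peaks of the list. A protein-coding transcription start site (TSS) lay within 1 kb of 14 members (2.39%) and of 41 shared strong peaks (9.88%). Over all peaks of the list this share was 4.19%, and in unique peaks past rank 1000 it was 3.01% (members minus these −0.62 points, −1.80 to 1.06). The difference was −7.49 points (−10.9 to −4.52), but within strata of GC content it was −2.07 with an interval of −4.39 to 0.25 that includes 0. With the starts of all transcripts in place of the outermost start of each gene it was −14.2 points. GC content thus moved with this difference, and its part in it beyond that stratification was not tested.

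At longer range the difference from shared peaks was still present within GC strata. Within 10 kb of a TSS lay 12.6% of members and 28.7% of shared peaks, a difference of −16.0 points (−21.2 to −10.9) that was −6.80 (−11.8 to −1.83) within GC strata. The share was 16.5% over all peaks of the list and 13.5% in unique peaks past rank 1000, from which the members differed by −0.88 points (−3.66 to 2.29). Over 100 kb from any TSS lay 42.2% of members and 25.1% of shared peaks, a difference of 17.2 points (11.3 to 22.8) and of 10.6 (3.29 to 17.9) within GC strata. Here too the members were near the list, with 39.7% over all its peaks and 44.2% in unique peaks past rank 1000 (difference −2.01 points, −6.35 to 2.41). The median distance was 71547 bp in members and 31468 bp in shared peaks. By annotation, 266 members (45.5%) were in introns of protein-coding genes, 195 (33.3%) between genes and 80 (13.7%) in introns of other genes. Another 22 (3.76%) were in exons outside the coding part, 13 (2.22%) in coding exons and 9 (1.54%) in exons of other genes. Over all peaks of the list these shares were 43.8%, 34.0%, 13.2%, 4.67%, 2.57% and 1.64%, so the members were near the list in each. The intergenic share was 5.38 points above that of shared peaks, within counting error (−0.45 to 11.1).

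**Figure D4:**
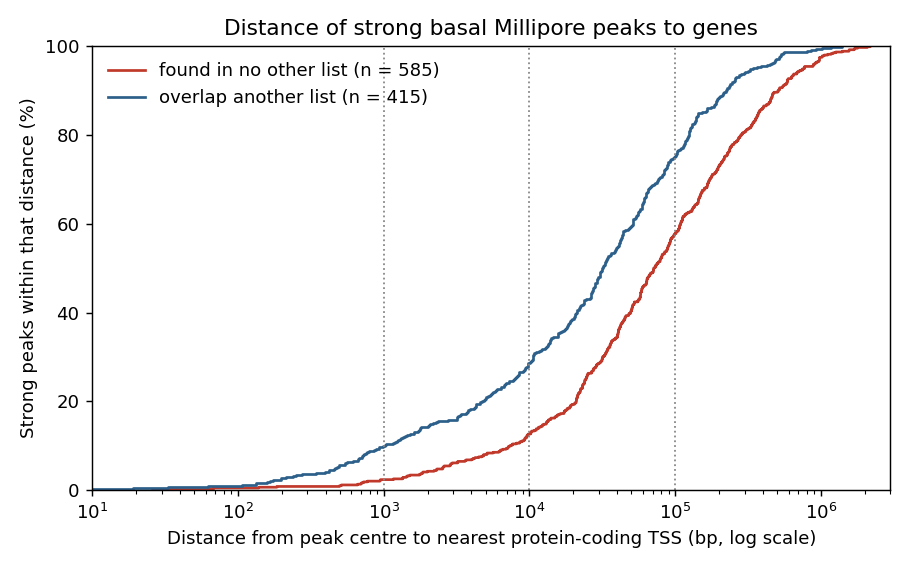
Cumulative percentage of unique (n = 585) and shared (n = 415) strong peaks by distance of the peak centre to the nearest protein-coding TSS, on a log axis in bp, with dotted lines at 1, 10 and 100 kb. The unique sites lie to the right of the shared ones, with medians of 71547 and 31468 bp.

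The 10 best-ranked members lay in introns or between genes, and the nearest TSS was over 30 kb away for each of them. Member 38 lay in an intron of CFAP97D2, with the nearest TSS, at 31887 bp, that of CDC16, a subunit of the anaphase-promoting complex. Member 40 (chr9:124198051-124198299) was 63948 bp from the start of GGTA1, and member 65 was intergenic, 94455 bp upstream of IFFO2. Member 70 (chr12:19961451-19961649) was 404571 bp beyond the start of AEBP2, which encodes a cofactor of the Polycomb repressive complex, and member 80 (chr19:32124351-32124549) 284108 bp upstream of TSHZ3, a zinc finger transcription factor gene. None of these 5 was within 5 kb of a peak of another list.

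Of the next 5, members 86, 89 and 94 lay in introns of HYDIN, NELL2 and ELMO1. HYDIN encodes a protein of motile cilia, and ELMO1 an adaptor for activation of the GTPase Rac. Member 94 (chr7:37287601-37287799) held the consensus shown above and was 201126 bp from the ELMO1 start and 48601 bp from the closest peak of another list. Member 93 was intergenic, 147615 bp from SUDS3, a component of the Sin3 corepressor complex. Member 95 (chr7:135550201-135550499), in an intron of a noncoding gene, also held the consensus and was 111757 bp from MTPN. Member 112 (chr15:41077451-41077699), the fifth of the members with the consensus, was in an intron of DNAJC17.

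Few members were promoter sites, and the best-ranked of these belonged to genes of varied function. Member 203 (chr12:498551-498699) was 139 bp from the start of KDM5A, a histone H3 demethylase gene, in an exon of CCDC77 outside its coding part. Member 233 was 663 bp upstream of TNFSF13B, which encodes the B cell survival factor BAFF. Member 280 (chr10:112630751-112630899), 728 bp upstream of PDCD4, an inhibitor of translation, held the SF-1 consensus and was 601 bp from an overexpressed Perseus peak. Member 315 was in the coding exon of NUDT19 with 72.7% GC, the highest GC content of all members. Member 378 was 512 bp upstream of SMIM46 and within an intron of PRKACA. A second promoter site with the consensus was member 435, 68 bp upstream of PLA2G1B, the gene of a secreted pancreatic phospholipase. This site was named after its values were seen.

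Members also occurred near genes of the steroidogenic pathway, without doing so at every gene. Of 20163 protein-coding genes, 944 (4.68%) had a member within 100 kb of the TSS. Among 15 genes of steroid synthesis 3 did (20%, 7.05 to 45.2), among 16 adrenal regulators 2 (12.5%, 3.50 to 36.0), among 10 genes of cholesterol supply 0 and among 13 SF-1 dosage genes taken from the study 0. The interval of the steroid list lay above the share of all genes and those of the other 3 lists included it. That interval rests on 3 genes, and the lists were drawn up with results of these data known, so no enrichment is read from it. The last list was chosen by the study on the same cells. Shared strong peaks were within the same distance of 2, 1, 1 and 1 genes of these lists, and of 5.39% of all protein-coding genes.

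Member 101 in an intron of UBL7 and member 108 in an intron of SEMA7A were 85863 and 64963 bp upstream of CYP11A1, which encodes the cholesterol side-chain cleavage enzyme that starts steroid synthesis. The pair was the best-ranked among the members near listed genes. The shared strong peak of rank 41 (chr15:74619101-74619449) held the consensus and was closer to the CYP11A1 start, at 40712 bp. Member 108, with the consensus CCAAGGTCA, was 1349 bp from the start of SEMA7A and 851 bp from an overexpressed Millipore peak. The other members near steroid genes were of rank 683, 45992 bp upstream of CYB5A, the cytochrome that assists androgen synthesis, and of rank 808, in an intron of TNXB and 66746 bp from the start of CYP21A2, the steroid hydroxylase gene mutated in congenital adrenal hyperplasia. Neither held the consensus.

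Among the regulators, member 378 was 5096 bp inside PRKACA, the catalytic subunit of protein kinase A that carries the signal of corticotropin. Member 795 was 951 bp upstream of NR5A1. It had 53.8% GC, no consensus and, as shown in capitals above, 2 mismatches at its closest stretch. Peaks of the overexpressed Perseus and overexpressed Millipore lists lay 751 and 1301 bp away from it, while the closest basal Perseus peak was at 41951 bp. The NR5A1 region was therefore represented in 3 of the 4 lists within 2 kb, though not by overlapping peaks.

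For most members no peak of another list was close. Within 500 bp lay a peak of any other list for 22 members (3.76%), within 1 kb for 35 (5.98%) and within 10 kb for 139 (23.8%), and the median gap was 35751 bp. In unique peaks past rank 1000 the median gap was 45001 bp, so the members were no farther from other lists than these. The rule excluded overlap, so the gaps describe the choice and carry no test. By list, 12 members had an overexpressed Millipore peak within 500 bp, 4 a basal Perseus peak and 8 an overexpressed Perseus peak. Starts lay on a grid of 50 bp, and 3 members abutted a peak of another list with a gap of 1 bp: member 195 in BMF, member 364 in ZMYM2 and member 772, 63 bp upstream of HOXB13. Member 444 (chr7:47898351-47898749) in an intron of PKD1L1 was among the 3 widest, at 399 bp, held the consensus 2 times and was 51 bp from an overexpressed Millipore peak. Members 504 and 754 had the same width, and their nearest peaks of another list were 37151 and 17251 bp away. Member 677, which held the consensus and was 19203 bp upstream of POMC, the gene of the corticotropin precursor, had an overexpressed Millipore peak 51 bp away. These near neighbours other than member 444 were named after their values were seen. When a peak within 500 bp counted as shared, 563 members were left.

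Members were unevenly distributed over chromosomes. Chromosome 9 held 66 members, 11.3% of them (8.97 to 14.1), against 7.49% of all peaks of the list and 4.20% of the known bases of the genome. Chromosome 15 held 40 (6.84%, 5.06 to 9.18), against 3.96% of the list and 2.86% of bases. Density was highest on these chromosomes, at 5.49 and 4.90 members per 10 Mb. Members were 61.1% (51.7 to 69.8) of the strong peaks on chromosome 9 and 67.8% (55.1 to 78.3) on chromosome 15. The shared strong peaks there numbered 42 and 19. Both intervals include the 58.5% over all strong peaks. They are wide, so whether the high counts there were particular to the unique sites cannot be told from them. Chromosome 17 held 5 of its 26 strong peaks as members (19.2%), whereas chromosome 7 held 54 of 74 (73.0%). Chromosomes 3, 5, 7, 9, 12 and 15, picked after the counts were seen, together held 53.2% of members, 40% of shared strong peaks, 39.9% of the list and 30.1% of known bases. Within chromosomes, the differences in consensus share and in GC content were −41.1 and −6.54 points.

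**Figure D5:**
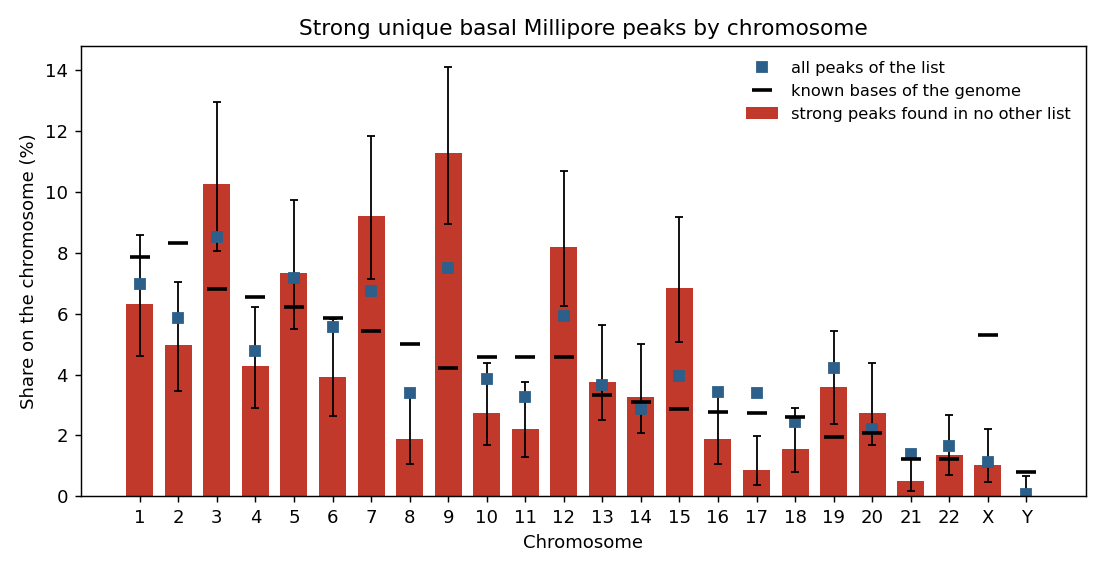
Bars give the share of the 585 members on each chromosome with 95% Wilson intervals, squares the share of all 4393 peaks of the list and dashes the share of known bases of the genome. The intervals of chromosomes 7, 9, 12 and 15 lie above both marks, and chromosome 17 is among those with an interval below both.

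Local groups of members were small. Joining members up to 100 kb apart gave 32 runs with 65 members, and the largest held 3 members near SATB1 (chr3:18619351-18721549, ranks 865, 894 and 573), a chromatin organizer gene. CDCP1, a transmembrane glycoprotein gene, had 3 members within 100 kb of its TSS, of ranks 376, 635 and 813, the last of them in a coding exon. None of the 3 at SATB1 held the SF-1 consensus. SATB1 and CDCP1 were named after their values were seen, and no count of runs is given for shared strong peaks.

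The same rule applied to the other lists gave fewer strong unique sites, which were more often near a TSS and richer in G and C. In the overexpressed Millipore list 514 peaks of rank 1000 or better overlapped no other list, in the basal Perseus list 342 and in the overexpressed Perseus list 313. Over all ranks, 9931 of 11910, 4124 of 6616 and 4631 of 7453 peaks of these lists overlapped no other. In the basal Millipore list 3474 of 4393 did so. These counts come from the measure used for the choice and nothing is read from them. The SF-1 consensus was in 11.9% of the overexpressed Millipore sites, a difference of −0.24 points for the members (−4.12 to 3.56) that was within counting error. It was in 21.6% and 16.9% of the basal and overexpressed Perseus sites, and the members were lower by −10.0 (−15.2 to −5.07) and −5.31 (−10.4 to −0.600) points. A TSS within 1 kb was found for 10.7%, 35.7% and 30.4% of the unique sites of these lists. The members, with 2.39%, differed by −8.31, −33.3 and −28.0 points, and their mean GC content of 44.7% compared with 55.3%, 54.4% and 56.7%. Neither measure was set beside the other peaks of these lists. Rank 1000 covers unequal parts of lists of unequal length, and how many reads stand behind each is not known.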

How the data were processed

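ChIP-seq libraries of H295R/TR SF-1 cells were processed by the authors, who mapped reads to hg19 (CASAVA 1.6 per the processing notes, ELAND per the methods) and called peaks with CisGenome on the pooled libraries of a condition against input. The deposited files give positions and a rank. The deposited score is 1000 for every peak and was not used. Each list is 1 pooled call, so no value has a replicate error, and no p-value was computed. Read depth is not given. The 95% Wilson and Newcombe intervals, and for mean GC content the interval from standard errors, cover counting error over peaks only. Limits on a count of 0 use 3 counts. Intervals within strata came from standard errors of the shares or means, weighted by members per stratum. A stratum with a share of 0 adds no spread to them, so they can be too narrow. The 2 antibodies and 4 lists were compared by overlap of at least 1 bp.

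Sequences were read from GRCh37 (hg19), genes and places from GENCODE version 44 mapped to it, with Python 3.11.15, pysam 0.24.0, samtools 1.23.1 and dustmasker 2.17.0 for low complexity. Distances to a TSS were taken between the centre of a peak and each protein-coding gene's outermost start. The overlap count was tested on planted overlaps, the motif search on simulated sequences with planted matches, and the Newcombe interval on simulated counts. Members and gene lists were chosen with earlier results of these data known. Peaks named were the 10 best-ranked members, the 5 best-ranked with the SF-1 consensus, the 5 best-ranked within 1 kb of a TSS, the 3 widest, the members near listed genes, those beside the rank threshold and the 3 best-ranked shared peaks. Alternatives changed the rank threshold, the overlap, the comparison group, the window, the motif and the starts used, and strata of GC content and chromosome were added after seeing the data.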

Additional observations from a re-analysis of the deposited data

How the results depend on the processing

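Of 67 alternative values of the differences, 63 matched the reported value in direction and in whether the interval included 0. Another 2 kept the direction with intervals that now excluded 0, 1 kept it with an interval that included 0, and 1 was reversed. The SF-1 consensus difference ranged from −50.3 points (against peaks shared with a Perseus list) to −9.72 (against peaks shared with the overexpressed Millipore list only), and that of mean GC content from −8.97 to −6.50. The difference within 1 kb of a TSS was −2.07 within GC strata, with an interval that includes 0. The low-complexity difference was 0.17 against peaks shared with the overexpressed Millipore list only, −1.34 in windows of 200 bp and −10.3 when any low-complexity base counted, the last 2 with intervals that exclude 0, since these settings count other bases or other peaks. The number of members was 230 with a rank threshold of 500 and 1399 with one of 2000, by construction, and 639 when at least 50% coverage was required for sharing. The NRSF/REST difference ran from −37.1 to −1.53 points and was −5.24 within strata of 250 ranks. No paired analysis was possible because each group is 1 pooled peak list. The depth of the lists, and with it the chance that a site was missed in another list, is unknown. Strata of GC content and chromosome were chosen after seeing the data.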
